A study of Mus musculus with 8 samples.

Results

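Alveolar progenitors of the lactating mouse mammary gland were compared with those of the gestating gland. The lactation (L) cells were the 142 and 89 cells of cluster C11 in libraries L_1 and L_2, and the gestation (G) cells were the 89 and 126 cells of cluster C10 in libraries G_1 and G_2, which together made 446 of 25010 cells of the series that passed the authors' quality flags. The clusters, the flags and the library of each cell were taken from the authors' annotation. Another 5 C10 cells of the L libraries and 4 of the other stages were not used. No barcode of these cells occurred in a second library (0 shared).

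Mammary epithelial cells had been sorted on the surface marker EpCAM, with cells positive for CD31, CD45 or Ter119 gated out, and sequenced as single cells from their 3′ ends in droplets. All mice were C57BL/6N. The G mice were at day 14.5 of gestation and the L mice at day 6 of lactation, with 2 mice per stage and 1 mouse per library. C10 was found almost only in G and C11 only in L, so that stage and cluster cannot be told apart, and both clusters had been drawn by the authors from the expression of the same genes that are compared here.

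Alveolar progenitors are luminal cells that carry the receptor Kit and are committed to the milk-secreting lineage. During gestation they divide and supply the alveoli, under prolactin and progesterone. At lactation the alveolar epithelium turns to making milk: prolactin acts through JAK2 and STAT5, caseins and whey proteins pass through the endoplasmic reticulum (ER) and Golgi, and lipid droplets leave the cell wrapped in membrane.

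UMIs (unique molecular identifiers, which mark single captured transcripts) were added up over the C10 or C11 cells of each library. C10 sums held 1307070 and 1602896 UMIs and C11 sums 1081043 and 850646, with median depths per cell of 9657 and 8870 UMIs in C10 and of 6691 and 8065 in C11. Levels are given as CPM, the share of a gene in the UMIs of its sum, scaled alike for all sums, in the order G_1, G_2 for C10 and L_1, L_2 for C11. Fold changes are C11 over C10 on the log2 scale with their standard error, from edgeR's quasi-likelihood test after TMM normalisation, with Benjamini-Hochberg adjustment over all genes tested and a threshold of 0.05. TMM scales each sum by the bulk of its genes, so a fold change need not equal the ratio of the CPM values. With 2 mice per stage, an exact permutation test of a single gene could not go below p = 0.333, and the adjusted p-values rest on a spread shared across genes.

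The labels were set beside markers. The paper used Aldh1a3, Cd14 and Kit, beside milk genes, to infer the identity of C10 and C11. Their levels therefore restate the labels and are no independent check. Aldh1a3, an aldehyde dehydrogenase of luminal progenitors, stood at 379 and 467 CPM in C10 and at 586 and 968 CPM in C11, against 73.4 and 6.74 CPM in the differentiated alveolar cells of the same L libraries (cluster C9). Kit stood at 206 and 233 CPM in C10 and at 120 and 112 CPM in C11, against 26.2 and 28.3 CPM in C9. The differentiated cells of G (cluster C8) held 24.8 and 41.3 CPM of Aldh1a3 and 66.1 and 86.7 CPM of Kit, so in each of the 4 mice both genes stood above the differentiated cells. Cd14, also a gene of luminal progenitors, stood at 136 and 182 CPM in C10, against 149.6 and 267 CPM in C8, and at 417 and 411 CPM in C11, against 339 and 507 CPM in C9. It was higher than in the differentiated cells in L_1 alone. Of the milk genes, Glycam1 stood at 71.2 and 26.8 CPM in C10, against 90.7 and 28.6 CPM in basal cells of G (cluster C13). Wap stood at 4.59 and 0 CPM against 4.55 and 1.14 CPM, and Lalba at 1.53 and 0 CPM against 2.02 and 0.229 CPM. In C10 these genes were thus near the level of basal cells. Csn2, at 1188 and 605 CPM, was above C13, at 635 and 354 CPM, and so was Elf5, at 256 and 208 CPM against 8.34 and 8.01 CPM.

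Free RNA from lysed cells enters every droplet. For that reason each gene that was higher in C11 was set beside its level in C14, the basal cells of the same L libraries, and each gene that was lower beside its level in C8, the differentiated alveolar cells of the same G libraries. Acta2, smooth muscle actin of myoepithelial cells, stood at 88.0 and 122 CPM in C10, at 3659 and 2439 CPM in C11 and at 26577 and 22787 CPM in C14. Summed over 7 contractile markers, C11 held 13.9% (L_1) and 10.9% (L_2) of the level in C14. In C11 the median cell had 0.201% (L_1) and 0.116% (L_2) of its UMIs from these markers, and in 28 of 142 and 12 of 89 cells they made up at least 1%. Whether free RNA, attached cells or the progenitors themselves were the source was not tested. The list of 16 basal and myoepithelial markers summed to 368 and 511 CPM in C10 and to 12740 and 9222 CPM in C11, all 16 were higher in C11, and none of them (0) was above C14. Genes whose level in C11 was not above C14 are kept apart from the others in what follows.

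Of 8398 genes tested, 1342 were higher in C11 of L (16.0%) and 1082 were lower (12.9%), with a median log2 fold change of -0.03 over all genes. Of the higher genes 722 were above C14 in both L libraries, and of the lower genes 743 were above C8 in both G libraries. How many of all tested genes stood above C14 or C8 was not counted. These counts therefore do not show whether this was more common among changed genes than among all genes. C14 RNA was also subtracted from C11 and C8 RNA from C10, in shares measured from contractile and milk genes. After this subtraction 1095 of 8094 genes were higher and 877 lower, and 1012 and 776 of the genes first called were called again in the same direction. Without the cells in which contractile markers made up at least 1% of UMIs, 1073 and 837 were called again. DESeq2 called 840 and 371 of the same genes.

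**Figure D1:**
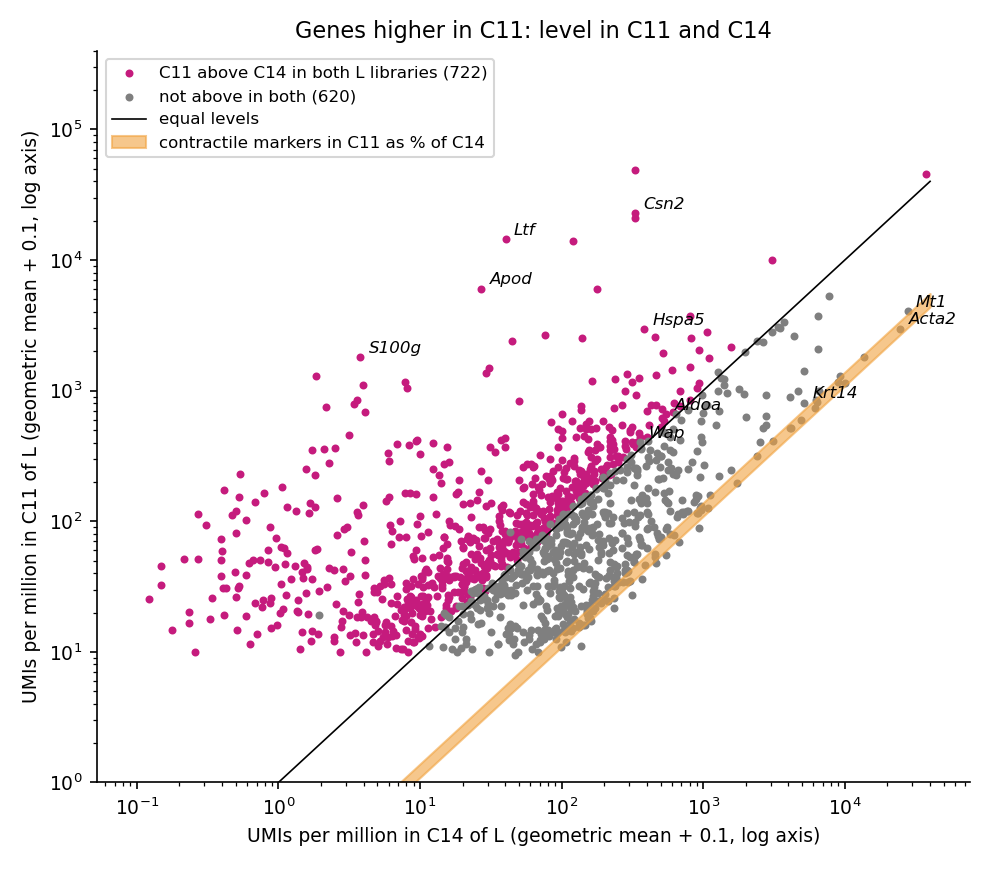
Level of each of the 1342 genes higher in C11, in C11 (vertical) and in basal C14 cells of the same L libraries (horizontal), as geometric means of CPM over L_1 and L_2 plus 0.1, on log axes. The 722 genes above C14 in both libraries lie over the line of equal levels, and the contractile gene Acta2 lies in the band drawn at 10.9% to 13.9% of the C14 level.

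Among the named rises above C14, Ltf encodes lactoferrin, an iron-binding defence protein of milk. It stood at 129 and 76.7 CPM in C10 and at 13188 and 15636 CPM in C11, and it rose by 7.44 ± 0.30 (adjusted p = 1.21e-06), while C14 held 40.8 and 39.4 CPM. Apod, a lipocalin that binds lipids, stood at 29.1 and 10.6 CPM in C10 and at 8136 and 4474 CPM in C11, a rise of 8.66 ± 0.48 (adjusted p = 3.40e-06). For both genes the lowest L mouse was far above the highest G mouse, but the named rises were chosen to have no overlap between mice.

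S100g, which encodes a cytosolic calcium-binding protein, stood at 0 and 1.87 CPM in C10 and at 1018 and 3156 CPM in C11. With only 3 UMIs in C10, the ratio of the pooled levels was 1901, with a 95% counting interval from 650.0 to 9223. The differentiated C9 cells held 6.99 and 9.43 CPM and C14 held 2.65 and 5.11 CPM, so the level in C11 was above both in each library. After thinning to 2000 UMIs, 36 of 137 C11 cells of L_1 and 44 of 89 of L_2 had at least 1 UMI of S100g, against 23 of 4396 and 33 of 3086 C14 cells.

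2310057J18Rik had no UMI in C10 and stood at 1149 and 1468 CPM in C11, a level at least 1251-fold higher than 3 UMIs over the G group. It was low outside the progenitors, at 5.24 and 1.35 CPM in C9 and at 2.08 and 1.44 CPM in C14. Ccl6, a chemokine gene, stood at 3.06 and 2.50 CPM in C10 and at 270 and 466 CPM in C11 (7.30 ± 0.38, adjusted p = 2.40e-06), and at 5.24 and 1.35 CPM in C9.

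Spp1, which encodes the secreted phosphoprotein osteopontin, stood at 1.53 and 0 CPM in C10 and at 1672 and 1104 CPM in C11, a ratio of 2069 (interval 572 to 17094 from 2 UMIs in C10). Differentiated C9 cells held 14742 and 21697 CPM. Lao1, an L-amino acid oxidase of milk, had a ratio of 357 (63.5 to 14160) and was likewise higher in C9, at 1570.4 and 1202 CPM, than in C11, at 142 and 97.6 CPM. Saa1, an acute phase apolipoprotein, had no UMI in C10 and rose to 121 and 102 CPM, at least 109-fold, with 225 and 3988 CPM in C9. These 3 genes were thus measured at higher levels in the differentiated cells of lactation than in the progenitors.

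**Figure D2:**
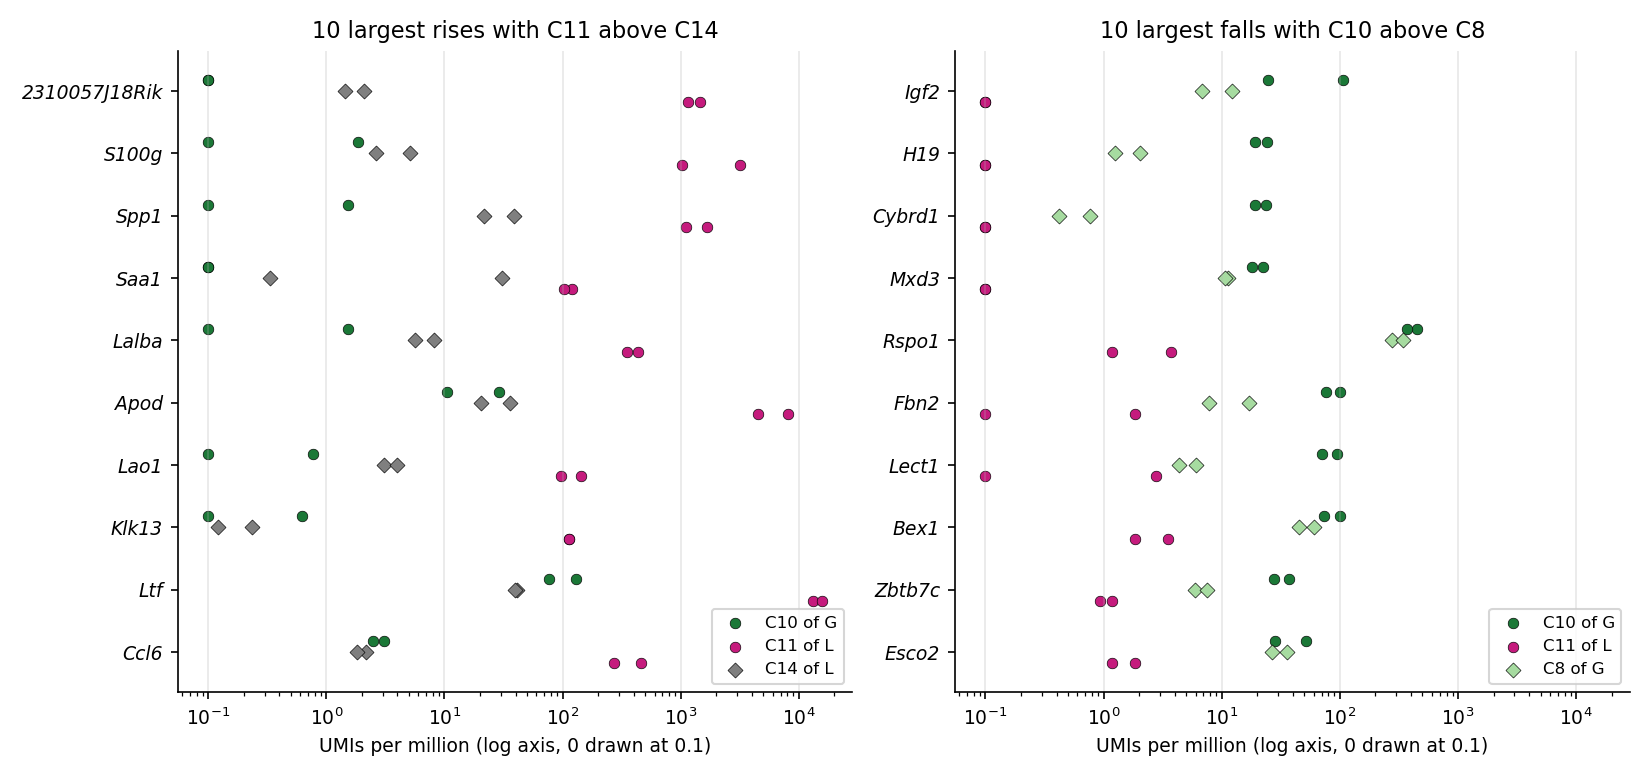
CPM per library (log axis, 0 drawn at 0.1) of the 10 largest rises whose level in C11 was above C14 and the 10 largest falls whose level in C10 was above C8, 1 point per mouse. Genes with overlap between mice were left out, so the C10 and C11 points of each gene lie apart by choice. Ltf stood at 129 and 76.7 CPM in C10 and at 13188 and 15636 CPM in C11.

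Igf2 and H19 are imprinted neighbours on chromosome 7. Igf2, a growth factor gene, stood at 24.5 and 106 CPM in C10 and had no UMI in C11, at least 44.7-fold lower. The 2 G mice differed widely, and the bound was 15.8-fold without G_2. H19, the non-coding RNA gene next to it, stood at 19.1 and 24.3 CPM in C10 with no UMI in C11, at least 14.2-fold lower. In C8 of the same G libraries Igf2 stood at 6.80 and 12.3 CPM and H19 at 1.25 and 2.05 CPM.

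Rspo1 encodes a secreted protein that strengthens Wnt signalling. It stood at 448 and 372 CPM in C10 and at 3.70 and 1.18 CPM in C11, and fell by 6.95 ± 0.32 on the log2 scale (adjusted p = 1.21e-06). After thinning, 47 of 89 and 59 of 126 C10 cells had a UMI of Rspo1, against 0 of 137 (a count of 0 allows a share up to 2.19%) and 1 of 89 C11 cells. The C14 cells, at 9.42 and 13.2 CPM, were above C11 in both L libraries, and C8 held 277 and 345 CPM.

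Cybrd1, a ferric reductase gene, and Mxd3, a gene of the MYC network, had no UMI in C11 and were at least 13.9-fold and 12.8-fold lower. Bex1 stood at 99.5 and 73.6 CPM in C10 and at 1.85 and 3.53 CPM in C11 (-4.70 ± 0.40, adjusted p = 4.40e-05). Fbn2, a fibrillin of elastic fibres, was 86.6-fold lower by its pooled UMIs (23.7 to 719), Lect1 54.2-fold (18.3 to 265), Zbtb7c 31.5-fold (8.49 to 264) and Esco2, which acetylates cohesin, 24.8-fold (8.26 to 122). In each of these 4 genes C11 held at most 3 UMIs in all.

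Changes that were not set apart from the neighbouring cells included Igfbp6, Pcdh7, Scn7a, Wap and Saa2 among the rises. Igfbp6 was at least 36.7-fold, Pcdh7 at least 26.6-fold and Scn7a at least 24.1-fold higher, and C14 held more of each than C11 did: Igfbp6 stood at 265 and 171 CPM in C14 and at 52.7 and 18.8 CPM in C11, and its bound was 18.2-fold without L_1. Among the falls, Calca stood at 29.8 and 138 CPM in C10 and had no UMI in C11, at least 57.5-fold lower, or 19.2-fold without G_2. E2f8 stood at 32.1 and 8.73 CPM in C10 and had no UMI in C11, at least 12.4-fold lower, or 5.62-fold without G_1. Melk, a mitotic kinase, was 20.6-fold lower (6.83 to 102). Ubd, an interferon-inducible ubiquitin-like modifier, stood at 171 and 137 CPM in C10 and at 7.40 and 2.35 CPM in C11 (-4.57 ± 0.34, adjusted p = 1.87e-05), and Cxcl10, an interferon-inducible chemokine, at 179 and 188 CPM and at 11.1 and 9.40 CPM (-3.83 ± 0.23, adjusted p = 5.13e-06). These 5 falls were not above C8 in both G libraries.

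All 8 milk protein genes tested were higher in C11, with a median log2 fold change of 5.46, and 6 of them were above C14. Csn2 encodes beta-casein. It stood at 1188 and 605 CPM in C10 and at 25702 and 20408 CPM in C11 (4.99 ± 0.33, adjusted p = 9.74e-06), against 333 and 322 CPM in C14. Csn1s2a stood at 403 and 196 CPM in C10 and at 24238 and 18156 CPM in C11 (6.46 ± 0.37). Lalba, the lactose synthase subunit, had 2 UMIs in C10 and a ratio of 580.0 (160.0 to 4798). Csn1s1 and Csn3 rose by 3.01 ± 0.29 and 4.32 ± 0.33.

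Wap, the whey acidic protein, behaved differently in level. It stood at 4.59 and 0 CPM in C10 and at 241 and 681 CPM in C11, while C14 held 323 and 392 CPM, so that the C11 value of L_1 lay under that of the basal cells. Csn1s2b, at 426 and 153 CPM in C11, lay under C14, at 513 and 679 CPM, in both libraries. Differentiated C9 cells held 91754 and 101970 CPM of Wap. Glycam1 stood at 71.2 and 26.8 CPM in C10 and at 55.5 and 246 CPM in C11, so that the mice of the 2 stages overlapped, and its rise of 1.91 ± 0.60 (adjusted p = 0.0386) fell to 0.57 without L_2 (adjusted p = 0.123).

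The milk proteins took 0.408% and 0.203% of the UMIs of C10, 7.21% and 5.92% of those of C11, and 44.8% and 41.7% of those of C9. In single C11 cells the share ran from 0.0722% to 26.9% in L_1 (median 4.09%) and from 0.0258% to 30.1% in L_2 (median 2.26%). The highest C10 cell had 1.38%, and 34 of 142 C11 cells in L_1 and 38 of 89 in L_2 lay at or under it, so that the ranges overlapped.

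**Figure D3:**
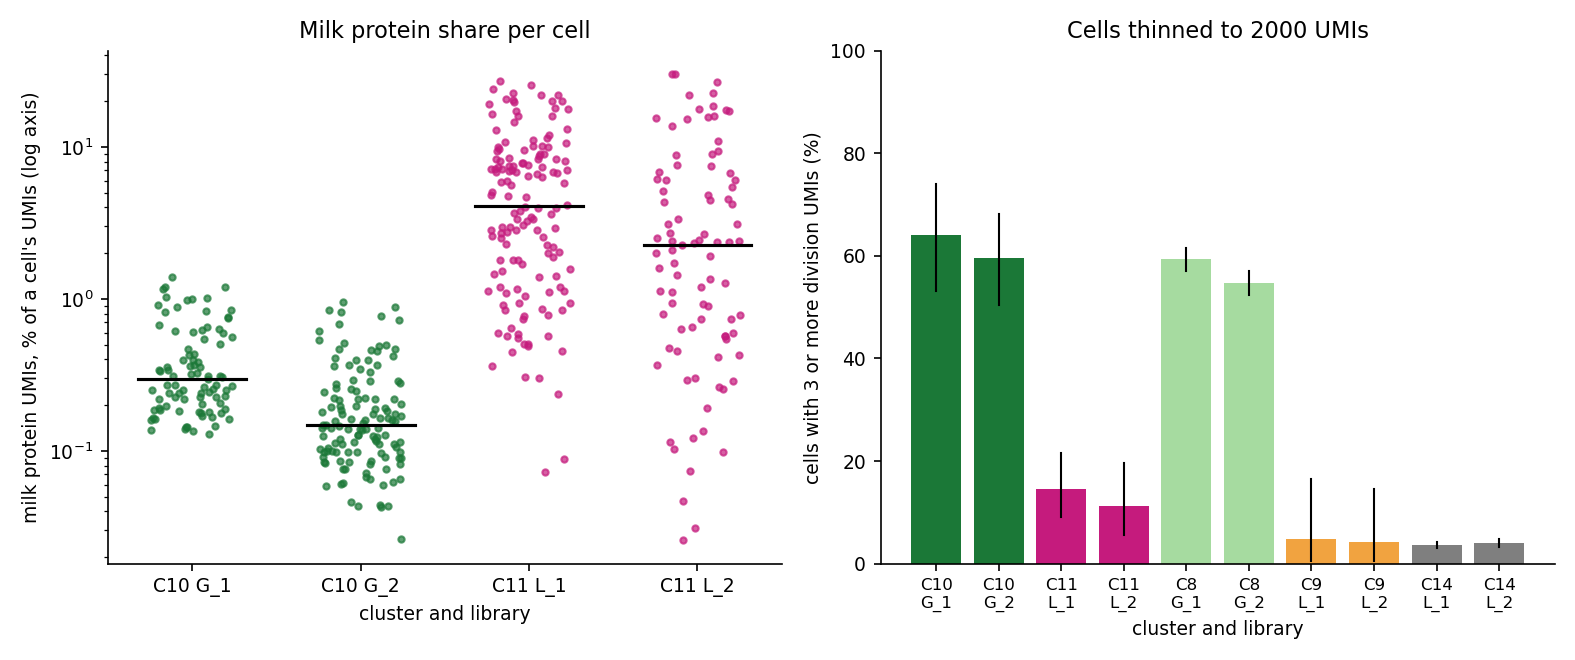
Left, the share of each cell's UMIs in 8 milk protein genes (log axis), 1 point per cell of C10 or C11 with the median as a line; medians were 0.299% and 0.147% in C10 and 4.09% and 2.26% in C11. Right, the share of cells with 3 or more UMIs of cell division genes after thinning to 2000 UMIs, with exact 95% binomial intervals as lines, which fell from 64.0% and 59.5% in C10 to 14.6% and 11.2% in C11.

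The starts of Csn2 and Csn1s2a are shown because STAT5, on which prolactin acts, binds the sequence TTCNNNGAA, given in capitals. The windows run from 250 bases before to 50 bases after the RefSeq start in GRCm38.p6, 5′ to 3′ on the strand of the gene, at chr5:87699376-87699675 (minus strand) for Csn2 and chr5:87774200-87774499 (plus strand) for Csn1s2a.
Csn2: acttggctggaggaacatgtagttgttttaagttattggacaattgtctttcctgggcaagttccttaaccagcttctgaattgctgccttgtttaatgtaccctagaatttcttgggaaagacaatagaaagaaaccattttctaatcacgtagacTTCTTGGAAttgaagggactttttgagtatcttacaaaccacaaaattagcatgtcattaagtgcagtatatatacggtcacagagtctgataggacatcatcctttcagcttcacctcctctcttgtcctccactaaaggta
Csn1s2a: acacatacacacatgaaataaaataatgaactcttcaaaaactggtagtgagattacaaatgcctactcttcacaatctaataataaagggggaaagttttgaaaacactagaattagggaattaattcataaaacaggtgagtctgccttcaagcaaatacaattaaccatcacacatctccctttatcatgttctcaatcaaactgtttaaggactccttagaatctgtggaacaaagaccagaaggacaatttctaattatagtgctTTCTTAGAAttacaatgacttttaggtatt
By the RefSeq starts the site begins at base -93 of Csn2 and at base 21 after the start of Csn1s2a. The GENCODE genes start elsewhere, at chr5:87699630 for Csn2 and at chr5:87774567 for Csn1s2a. By those starts the site of Csn2 lies after the start and that of Csn1s2a before it. The sequence is its own reverse complement in form, so it reads alike on both strands. Of the 6 milk protein genes with a window, 4 held it, against 9.55% of 27025 genes with a window in the genome. Among all genes higher in C11 the share was 8.33% of 1009 with a window, near the 8.05% of 6498 genes tested.

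Genes of milk fat synthesis and secretion rose in part. Of 27 tested, 18 were higher and 0 lower, with a median of 1.60, and 15 were above C14. Btn1a1, the butyrophilin of the milk fat globule membrane, stood at 72.7 and 51.2 CPM in C10 and at 895 and 696 CPM in C11 (4.0 ± 0.23, adjusted p = 4.45e-06). Xdh, its partner in fat globule release, rose by 3.45 ± 0.18, Cidea, a lipid droplet protein, by 5.83 ± 0.39 and Plin2, the droplet coat protein, by 2.28 ± 0.23. Olah, the thioesterase that releases medium-chain fatty acids, rose by 4.17 ± 0.32, Fabp3, a fatty acid carrier, by 4.33 ± 0.43 and Thrsp, a regulator of lipogenesis, by 3.42 ± 0.38. Fasn, the fatty acid synthase, stood at 33.7 and 29.3 CPM in C10 and at 23.1 and 18.8 CPM in C11 (-0.26 ± 0.28, adjusted p = 0.513), and Scd1, a fatty acid desaturase, had a log2 fold change of -0.13 ± 0.19 (adjusted p = 0.629). The genes of lipid droplet coats and release were thus among the called members, and the synthase and the desaturase were not.

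The machinery of the secretory pathway was higher in C11. Of 29 genes of ER translocation, folding and stress, 20 were higher and 0 lower, all 20 above C14, with a median of 1.18. Hspa5, the chaperone BiP, stood at 775 and 618 CPM in C10 and at 3090 and 2859 CPM in C11 (2.40 ± 0.18, adjusted p = 1.82e-05). Xbp1, a transcription factor of the unfolded protein response, stood at 68.1 and 59.3 CPM in C10 and at 412 and 282 CPM in C11 (2.76 ± 0.22). Sdf2l1, Herpud1 and Hsp90b1, which act in ER folding and degradation, rose by 3.08 ± 0.23, 2.93 ± 0.27 and 1.63 ± 0.15.

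Of 15 genes of hypoxia and glycolysis, 12 were higher and 1 lower, with a median of 1.38, and 8 of the 12 were above C14. Aldoa, an aldolase, stood at 97.2 and 120 CPM in C10 and at 586 and 748 CPM in C11 (2.91 ± 0.19), and Ldha and Pkm rose by 2.28 ± 0.17 and 2.09 ± 0.20. Aqp5, a water channel, stood at 24.5 and 23.7 CPM in C10 and at 379 and 320 CPM in C11 (4.16 ± 0.19, adjusted p = 1.23e-06). Gjb2, a gap junction gene, fell by 1.60 ± 0.24 on the log2 scale.

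**Figure D4:**
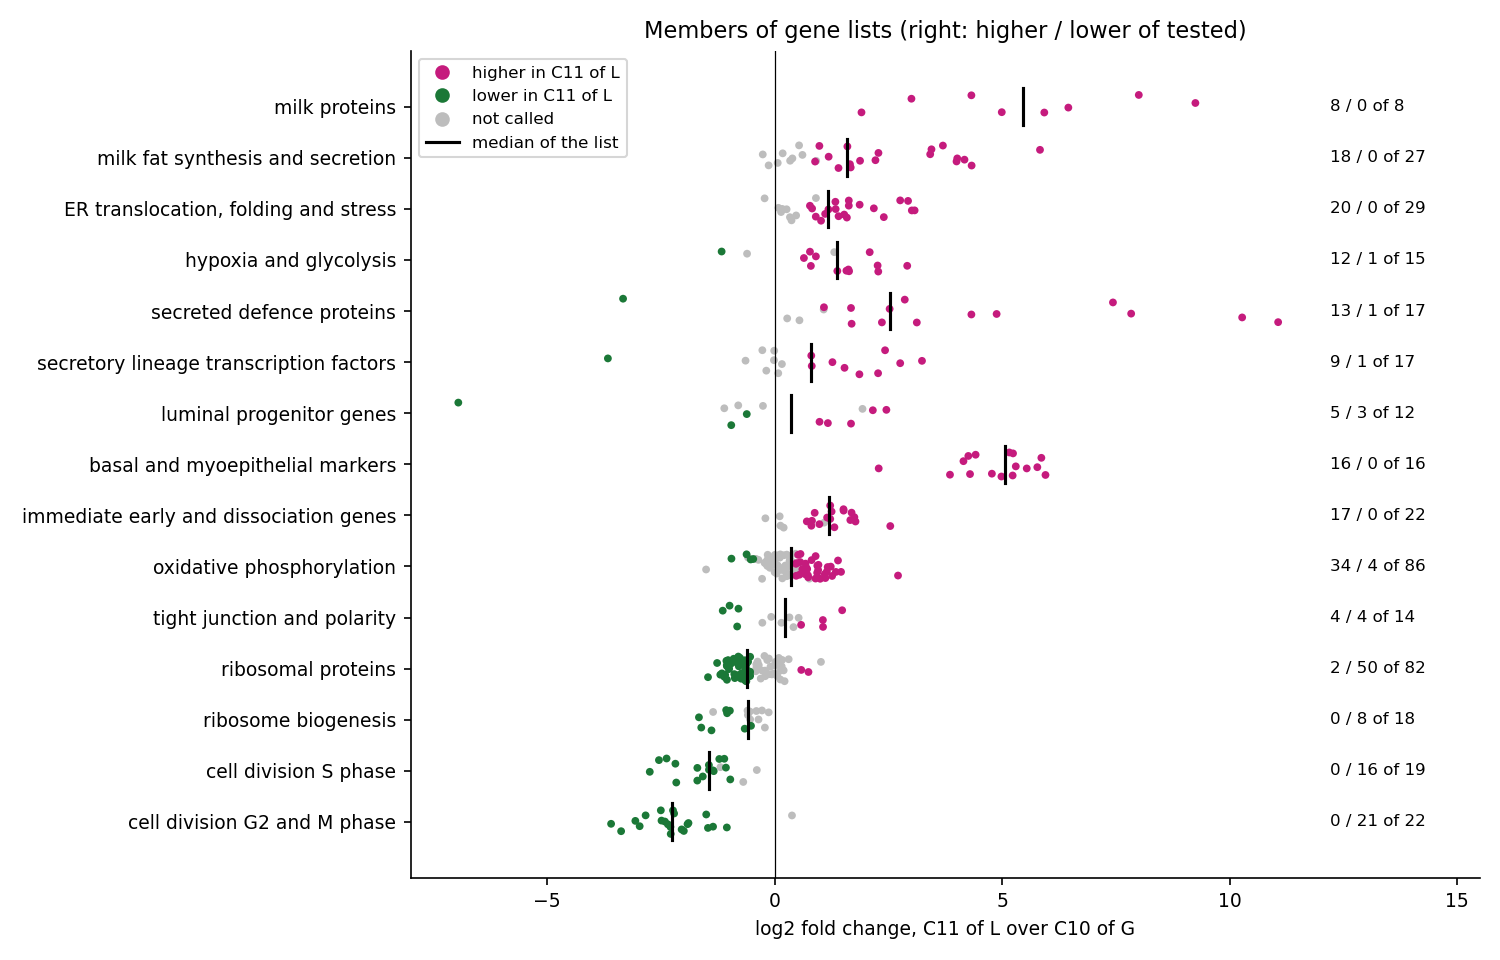
Log2 fold changes of C11 over C10 for the members of 15 gene lists that passed the filter, 1 point per gene, with the median as a line and the counts of higher and lower members at the right. Values of genes with few UMIs in 1 stage are fitted and are no bound; G2 and M phase genes have a median of -2.26, milk proteins one of 5.46.

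Of 17 transcription factors of the secretory lineage tested, 9 were higher and 1 lower, and 5 of the 9 were above C14. The lower one, Foxs1, a forkhead factor, stood at 17.6 and 17.5 CPM in C10 and at 1.85 and 0 CPM in C11, a ratio of 16.9 from 2 UMIs in C11 (4.45 to 144), and at 40.9 and 40.3 CPM in C8. Elf5, the factor needed for alveolar differentiation, stood at 256 and 208 CPM in C10 and at 727 and 637 CPM in C11 (1.86 ± 0.17, adjusted p = 7.41e-05), with 4.69 and 3.37 CPM in C14. Hey1, a Notch target, rose by 3.24 ± 0.35. Elf3 rose by 2.43 ± 0.45 and differed between the L mice, at 177 and 604 CPM. Cebpb rose by 2.27 ± 0.17 but was higher in C14, at 504 and 733 CPM, than in C11. Of the prolactin receptor and JAK-STAT5 list, 4 of 10 were higher and 0 lower. Prlr, the receptor, stood at 34.4 and 32.4 CPM in C10 and at 39.8 and 55.3 CPM in C11 (0.79 ± 0.24, adjusted p = 0.0356), and this call was lost without G_1 (0.81, adjusted p = 0.093), without G_2 (0.74, adjusted p = 0.126) and without L_2 (0.60, adjusted p = 0.149). Socs3, a feedback inhibitor of cytokine signalling, rose by 3.98 ± 0.18 and stood far higher in C14.

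Genes that mark luminal progenitors moved both ways. Of 12 tested, 5 were higher and 3 lower. Aldh1a3, with the levels given above, rose by 1.17 ± 0.23 (adjusted p = 0.00461), Cd14 by 1.68 ± 0.18, Tspan8 by 2.46 ± 0.16 and Ly6a by 2.16 ± 0.32. Creb5 fell by 0.95 ± 0.19 on the log2 scale, beside Rspo1. Kit fell by 0.61 ± 0.16 (adjusted p = 0.0180). The call for Kit was lost after subtraction of C14 and C8 RNA (-0.37, adjusted p = 0.154), without G_2 (-0.54, adjusted p = 0.137) and without the cells in which contractile markers made up at least 1% of UMIs (-0.46, adjusted p = 0.068).

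Secreted defence proteins were higher in 13 of 17 and lower in 1, with a median of 2.53, and 10 of the 13 were above C14. Wfdc18 stood at 11981 and 8980 CPM in C10 and at 42676 and 55447 CPM in C11 (2.53 ± 0.21). Pigr, which carries antibodies into milk, rose by 4.88 ± 0.50, Lcn2, a siderophore-binding lipocalin, by 2.36 ± 0.21 and Muc15, a mucin, by 1.69 ± 0.16. C3, the central complement protein, went the other way, from 146 and 127 CPM in C10 to 12 and 9.40 CPM in C11 (-3.33 ± 0.25, adjusted p = 1.82e-05). Outside this list Cxcl17, a chemokine of mucosal epithelia, rose by 5.45 ± 0.32 and Lrg1, an acute phase glycoprotein, by 6.29 ± 0.29.

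Among 11 genes of antigen presentation, 4 were higher and 2 lower. The 4 were those of class II: Cd74, the invariant chain, stood at 27.5 and 32.4 CPM in C10 and at 290 and 228 CPM in C11 (3.41 ± 0.21), and H2-Aa, H2-Ab1 and H2-Eb1 rose by 3.68 ± 0.42, 2.55 ± 0.22 and 2.99 ± 0.34. Psmb9, an immunoproteasome subunit, fell by 1.46 ± 0.31 on the log2 scale. The list of immune markers, in which Cd74 takes the largest share, summed to 52.0 and 54.3 CPM in C10, to 367 and 266 CPM in C11 and to 166 and 144 CPM in C14, with Ptprc at 0.925 and 1.18 CPM in C11 and Cd3e and Cd79a at 0. Its part in the class II values was not tested.

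The 4 kallikrein genes that could be tested, of 26 in the annotation, were all higher. C10 held only 10 UMIs of Klk10, 12 of Klk11, 1 of Klk13 and 2 of Klk14. These genes passed the filter through their level in C11, so their common direction was set by the filter and is no result. The other kallikrein genes were not tested, which does not show them to be unchanged. They were singled out after their values were seen, because 4 neighbours at chr7:43690418-43785410 (mm10) moved together, and they encode secreted serine proteases. Klk10 stood at 0.765 and 5.61 CPM in C10 and at 193 and 277 CPM in C11 (6.35 ± 0.39), and Klk11 at 3.83 and 4.37 CPM and at 151 and 179 CPM (5.58 ± 0.25). Klk13 had a pooled ratio of 330 (58.6 to 13089) and Klk14 of 73.8 (19.9 to 618), and Klk14 stood at 10.2 CPM in L_1 and at 102 CPM in L_2. All 4 were at or under 1 CPM in C14.

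Genes of cell division fell. Of 22 G2 and M phase genes tested, 21 were lower and 0 higher, with a median of -2.26, and of 19 S phase genes 16 were lower and 0 higher, with a median of -1.44. Mki67, a proliferation antigen, stood at 119 and 112 CPM in C10 and at 21.3 and 12.9 CPM in C11 (-2.41 ± 0.25, adjusted p = 0.000132). Top2a, a topoisomerase of mitosis, stood at 181 and 163 CPM in C10 and at 19.4 and 30.6 CPM in C11 (-2.50 ± 0.22, adjusted p = 5.25e-05). Ccnb2 and Cdk1, which drive entry into mitosis, fell by 3.60 ± 0.52 and 2.0 ± 0.46 on the log2 scale, and Mcm6, a helicase subunit of S phase, by 1.44 ± 0.23. The differentiated C8 cells of G held 158 and 155 CPM of Mki67 and 158 and 166 CPM of Top2a. Only 1 of the 21 lower G2 and M phase genes was above C8 in both G libraries. The S phase genes differed in this, with 12 of the 16 lower ones above C8 in both. Mcm6 stood at 93.3 and 89.2 CPM in C10 and at 68.5 and 73.9 CPM in C8.

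Counted by cell after thinning to 2000 UMIs, 64.0% of C10 cells in G_1 (95% exact binomial interval 53.2 to 73.9) and 59.5% in G_2 (50.4 to 68.2) had 3 or more UMIs of division genes, against 14.6% (9.15 to 21.6) and 11.2% (5.52 to 19.7) of C11 cells. Without thinning the shares were 94.4% and 92.9%, and 56.3% and 59.6%. The C8 cells had 59.3% and 54.7%, and the C9 cells 4.88% and 4.26%. The intervals cover counting error only. In C11 the share lay above that of C14, at 3.57% and 3.95%, in both mice.

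The starts of Hmgb2 and Top2a, both lower in C11, are shown with the motifs TTTGAA and TTCGAA of the cell cycle homology region and with CCAAT, all in capitals on either strand (TTCAAA and ATTGG are their reverse complements). The windows are chr8:57511593-57511892 (plus strand) and chr11:99024140-99024439 (minus strand) in GRCm38.p6, from RefSeq.
Hmgb2: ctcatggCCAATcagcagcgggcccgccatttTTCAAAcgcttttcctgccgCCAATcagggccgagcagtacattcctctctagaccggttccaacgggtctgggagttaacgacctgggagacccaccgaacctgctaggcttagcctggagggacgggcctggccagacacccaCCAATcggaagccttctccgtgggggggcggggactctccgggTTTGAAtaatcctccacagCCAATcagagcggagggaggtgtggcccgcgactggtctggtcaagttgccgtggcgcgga
Top2a: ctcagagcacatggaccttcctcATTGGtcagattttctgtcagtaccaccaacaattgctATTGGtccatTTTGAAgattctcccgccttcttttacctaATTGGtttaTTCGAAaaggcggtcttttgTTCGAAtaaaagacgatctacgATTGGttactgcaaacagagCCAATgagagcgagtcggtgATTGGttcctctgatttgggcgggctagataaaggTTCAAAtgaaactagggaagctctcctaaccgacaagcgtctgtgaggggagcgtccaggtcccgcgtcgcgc
Hmgb2 held 2 TTTGAA and 4 CCAAT sites, and Top2a 2 TTTGAA, 2 TTCGAA and 6 CCAAT. Of 21 G2 and M phase genes with a window, 16 held TTTGAA or TTCGAA and 19 held CCAAT, against 21.7% and 41.1% of 27025 genes with a window. Of 18 S phase genes, 3 held the former and 10 the latter. Among all genes lower in C11 with a window the shares were 20.8% and 44.0%, against 16.0% and 42.6% of the genes tested. Hmgb2 fell by 1.47 ± 0.19 on the log2 scale.

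Cdk4, which promotes entry into S phase, fell by 1.66 ± 0.17 on the log2 scale, from 291 and 265 CPM to 62.9 and 81.1 CPM. Cdkn1a, a cell cycle inhibitor, rose by 1.45 ± 0.17 but was higher in C14, at 502 and 554 CPM, than in C11, at 170 and 159 CPM. Genes of ribosome biogenesis were lower in 8 of 18 and higher in 0, with a median of -0.59: Npm1 stood at 2651 and 2645 CPM in C10 and at 669 and 685 CPM in C11 (-1.67 ± 0.15), and Ncl fell by 0.98 ± 0.15 on the log2 scale. Of 82 ribosomal protein genes, 50 were lower and 2 higher, with a median of -0.61, and after subtraction of C14 and C8 RNA 32 were lower. Of 86 genes of oxidative phosphorylation, 34 were higher and 4 lower, with a median of 0.35.

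Immediate early genes, which respond to dissociation of tissue, were higher in 17 of 22 and lower in 0, with only 2 of the 17 above C14. Fos stood at 3066 and 2684 CPM in C10, at 6689 and 4136 CPM in C11 and at 8879 and 6663 CPM in C14. Junb and Btg2 rose by 1.78 ± 0.16 and 2.54 ± 0.18. Their part in the other rises was not tested.

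The change from G to L in the progenitors was tested against that in the differentiated alveolar cells of the same mice (C8 in G, C9 in L). The difference passed the test in 315 of 8798 genes (3.58%), and leaving out 1 replicate moved this count between 145 (without G_2) and 751 (without L_1). The change was above in 172 (1.95%) and below in 143 (1.63%). Alox15, a lipoxygenase, stood at 8.42 and 8.11 CPM in C10 and at 36.1 and 57.6 CPM in C11, and at 36.7 and 35.5 CPM in C8 and 5.24 and 1.35 CPM in C9. Its change was 2.80 in the progenitors and -2.49 in the differentiated cells, a difference of 5.32 ± 0.57 (adjusted p = 1.73e-05). For Ccl6 the difference was 4.80 ± 0.72 (adjusted p = 0.000530). Tac1, a neuropeptide gene, stood at 0 in C9, and its rise in C11 of 2.08 ± 0.54 was lost without L_2 (1.04, adjusted p = 0.106). Arg1, an arginase, had 3 UMIs in C10 and a ratio of 74.3 (24.9 to 364), and its level in C9 was 1.75 and 1.35 CPM against 47.2 and 114 CPM in C11.

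Milk genes fell on both sides of this test. Csn2 and Csn1s2a rose further in the progenitors, by 2.20 ± 0.25 and 3.27 ± 0.25, and C8 cells held 31078 and 20282 CPM of Csn2. Csn1s2b differed by -5.78 ± 0.67, Fasn by -3.40 ± 0.31, Scd1 by -2.87 ± 0.26 and Mfge8, a globule membrane protein, by -2.41 ± 0.26, which rose less in the progenitors than in the differentiated cells or were not called there. Hspa5 and Hsp90b1 rose further in the progenitors, by 1.37 ± 0.24 and 1.66 ± 0.24. For the division genes no difference passed the test (0 of 24 G2 and M phase and 0 of 19 S phase genes). Over all genes the share was 3.58%, so a count of 0 in lists of this size does not show an equal fall. The median change of the G2 and M phase genes was -2.21 in the progenitors and -2.62 in the differentiated cells. Anxa8 rose by 2.62 ± 0.28 in the progenitors, and the difference was -4.08 ± 0.55. Hpgd and Nfe2l3 fell by 2.67 ± 0.50 and 3.38 ± 0.45 on the log2 scale in the progenitors, with differences of -4.68 ± 0.91 and -3.39 ± 0.84.

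**Figure D5:**
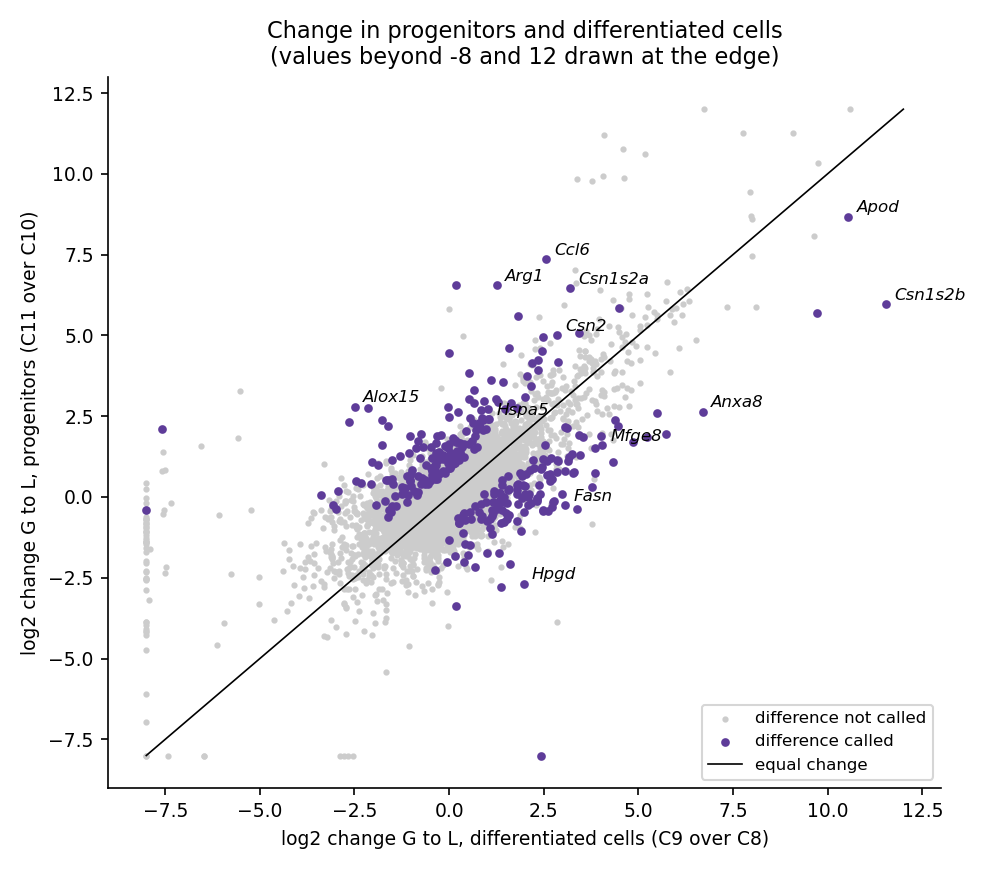
Log2 change from G to L in the progenitors (C11 over C10, vertical) and in the differentiated alveolar cells (C9 over C8, horizontal), 1 point per gene, with genes whose changes differed by the test in dark colour and equal change as a line. Alox15 lies at 2.80 and -2.49, and Fasn at -0.24 and 3.08.

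Against basal cells of the same mice (C13 in G, C14 in L), the change was above in 1506 of 11461 genes (13.1%) and below in 689 (6.01%). All 29 genes of ER translocation, folding and stress had a change above that of basal cells, and so did 6 of the 8 milk proteins. The change was also above in 11 of 24 G2 and M phase genes, a list that fell in both cell types. Its median change was -2.16 in the progenitors and -3.78 in basal cells.

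Within C11, cells with and without a UMI of a gene were set side by side after thinning, as a description. In L_1 the median milk protein share was 2.15% in cells with a UMI of S100g and 6.65% in the others, and in L_2 it was 1.10% and 3.95%. Cells with a UMI of Aldh1a3 had medians of 2.45% and 1.40%, against 7.05% and 6.73% in the others. Cells with a UMI of Spp1 had medians of 7.70% and 8.15%, against 3.70% and 1.70%. Of 13 genes set out in this way, 11 had cells with a UMI in both L libraries. The order was the same in both mice for 7 of them and reversed for 4 (2310057J18Rik, Ltf, Elf5 and Acta2). With 2 mice, a gene without any relation to milk is as likely to keep its order as to reverse it. The count of 7 of 11 is therefore not read as a pattern. Lalba, among the 7, is itself a milk protein gene counted in the share, so its order is partly built in. Thinning fixed the UMIs per cell with milk included, so a cell with more milk had fewer UMIs left for other genes. The part of this limit in the orders of the other genes was not tested.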

How the data were processed

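Sorted mammary epithelial cells of 2 G and 2 L mice were analysed, 1 library per mouse. The deposited values are raw UMI counts by gene and barcode. For these the authors had run Cell Ranger against the mm10 genome and applied no normalisation. Library, quality flags, cluster and total UMI count of each cell come from the annotation deposited by the authors, which also holds the mitochondrial fraction (not used in a test). Clusters were not made again, and doublets were not called again.

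Counts of 27998 genes were summed per library and cluster and tested with edgeR 4.0.16 in R 4.3.3 (TMM, filterByExpr with minimum count 10 and minimum total 15, quasi-likelihood test, Benjamini-Hochberg at 0.05; 2 residual and 7.42 prior degrees of freedom). Differences between the changes of 2 cell types were tested with the mouse as a term. DESeq2 1.42.0 was an alternative, beside other filters, depths, cell numbers, subtraction of C14 and C8 RNA and leaving out each replicate. Tests were tried on simulated data. Shares of cells have exact (Clopper-Pearson) 95% intervals after thinning to 2000 UMIs. A count of 0 allows 3 counts. Both cover counting error only.

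The alternative of leaving out cells with at least 1% contractile UMIs was chosen after seeing the data. Named genes were the 10 largest rises above C14 and falls above C8 with at least 20 CPM and no overlap between mice, the 5 largest that missed this comparison, the 5 largest differences from differentiated cells in each direction, and members of 41 gene lists. A gene that this rule names is not reported here. The members and lists were chosen with earlier results of these data known. Gene positions come from GENCODE and promoter windows from RefSeq. Python 3.11.15, numpy 2.4.6, pandas 2.3.3, scipy 1.17.1 and matplotlib 3.10.9 were used. The combined matrix was not used.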

Additional observations from a re-analysis of the deposited data

Results flagged for a closer look

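The change from G to L was tested between alveolar progenitors and the differentiated alveolar cells of the same mice, and it differed in 315 genes (145 to 751 with 1 replicate left out); between progenitors and basal cells it differed in 2195 genes. The genes of this text with such a difference from differentiated cells are given as the change in progenitors minus that in differentiated cells, on the log2 scale.

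The change in progenitors was the higher one in single genes of enzymes and signals: Tac1 9.86, Klk14 6.59, Arg1 5.35, Alox15 5.32 and Ccl6 4.80. Among milk genes it was higher for Csn1s2a 3.27, Csn2 2.20, Olah 1.82, Cd36 1.64 and Plin2 1.52, and among ER genes for Herpud1 1.99, Hsp90b1 1.66, Hspa5 1.37 and Sdf2l1 1.07. It was also higher for Aldoa 1.66, Aqp5 1.30, Cd74 1.30, Elf3 1.61, Muc15 1.51 and Pigr 2.47.

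The change in progenitors was the lower one for Anxa8 -4.08, Apod -1.77, Csn1s2b -5.78, Cybrd1 -12.78, Fasn -3.40, Hpgd -4.68, Lcn2 -1.99, Ly6a -2.29, Mfge8 -2.41, Nfe2l3 -3.39 and Scd1 -2.87. C9 held no UMI of Tac1 and C11 none of Cybrd1, so that these 2 values are fitted and no bound. C9 had 42 cells in L_1 and 47 in L_2, which limits these differences.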

How the results depend on the processing

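Of the alternatives run, other normalisation (DESeq2 size factors), no filter, the filter of the paper, an equal number of cells, leaving out milk genes, subtraction of C14 and C8 RNA and a spread shared over 6 clusters kept the counts of higher and lower genes within 1.5 times of 1342 and 1082. DESeq2's Wald test called 840 and 371, the paper's test, which sets both a log2 change above 1 and an adjusted p under 0.01 in place of 0.05, called 321 and 69, and cells thinned to 2000 UMIs gave 450 and 344 of 3093 genes tested. Leaving out cells with 3 or more contractile UMIs left 1 and 10 C11 cells and gave 94 and 16. Leaving out 1 replicate gave 1049 to 1522 higher and 730 to 1094 lower genes. The replicate numbers showed little pairing of the samples. Across the genes tested, the differences between G_1 and G_2 had a correlation of 0.066 with those between L_1 and L_2. With the replicate block 1463 genes were higher and 1175 lower.

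The count of genes that differed between progenitors and differentiated cells, 315, was 515 with no filter, and 145 to 751 with 1 replicate left out (155 without G_1, 145 without G_2, 751 without L_1). Against basal cells it was 1601 to 2224. The cause of these shifts was not tested, beyond fewer genes or samples.

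Among named genes, Acta2 had a value of -9.79 after subtraction of C14 and C8 RNA, which follows from the construction, since the share was set from contractile markers in C11 itself. Glycam1 changed sign without cells of 3 or more contractile UMIs (-0.0375). Scd1, not called in any fit, ran from -0.315 to 0.0732 with 1 replicate left out and was 0.0620 with equal cells and 0.0847 after subtraction. With 2 mice per stage and 42 to 142 cells per sum in C9 and C11, small changes of low genes were not detectable.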

Other observations

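Other gene groups were counted in the same way between C10 and C11. Over all genes tested 16.0% were higher and 12.9% were lower, and the counts of these groups are to be read against those shares. For calcium, phosphate and zinc transport, 5 were higher and 0 lower of 10 tested (median 0.79, 3 of the rises above C14). For cholesterol synthesis and uptake, 4 were higher and 0 lower of 16 tested (median 0.68, 2 of the rises above C14). For lactose synthesis and glucose supply, 3 were higher and 0 lower of 11 tested (median 0.72, 3 of the rises above C14). For the interferon response, 5 were higher and 0 lower of 12 tested (median 0.90, 5 of the rises above C14). This list does not hold Ubd and Cxcl10, which are interferon-inducible and fell, with log2 fold changes of -4.57 and -3.83. The count of 0 lower thus depends on the choice of members. For tight junction and polarity, 4 were higher and 4 lower of 14 tested (median 0.24, 4 of the rises above C14). For linker and variant histones, 3 were higher and 5 lower of 10 tested (median -0.34, 3 of the rises above C14).

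In 3 groups that basal cells express, few or none of the rises were above C14. For Wnt ligands and modulators, 5 were higher and 3 lower of 15 tested (median -0.15, 1 of the rises above C14). For integrins and laminins, 7 were higher and 1 lower of 16 tested (median 0.49, 0 of the rises above C14). After subtraction of C14 and C8 RNA, 11 were still tested and 0 were higher. The subtracted share was set from contractile markers in C11 itself. Rises of genes that basal cells express are therefore lowered by construction. For the insulin-like growth factor axis, 5 were higher and 1 lower of 11 tested (median 0.60, 1 of the rises above C14).

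For chemokines and cytokines, 5 were higher and 1 lower of 11 tested (median 1.27, 4 of the rises above C14). Cxcl10, which fell, is not in this list. For STAT3 targets and the acute phase, 7 were higher and 1 lower of 13 tested (median 1.17, 3 of the rises above C14). For translation factors, 0 were higher and 6 lower of 15 tested (median -0.42, 0 of the rises above C14). For amino acid transport and synthesis, 3 were higher and 2 lower of 12 tested (median -0.03, 1 of the rises above C14). These lists were counted without a test of the list, and counts of short lists near the shares over all genes show no change of the group.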
